A study of Mus musculus with 6 samples.

Results

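V(D)J recombination genes and the end-joining genes that finish the reaction were examined in mouse libraries labelled bone marrow, with or without Gab2. The 10 genes were taken by symbol from the table of 23359 gene symbols: the recombinase genes Rag1 and Rag2, the terminal transferase gene Dntt, and the nonhomologous end-joining genes Xrcc5, Xrcc6, Prkdc, Lig4, Xrcc4, Dclre1c and Nhej1. Each of the 10 symbols stood on a single row, and the genes were picked by function, with no threshold on their values. Rag1, Rag2 and Dntt are called lymphoid-specific here and the other 7 genes ubiquitous. The study sequenced polyadenylated RNA of 6 libraries labelled bone marrow, 3 of them Gab2 +/+ (WT A, B and C) and 3 Gab2 -/- (NULL A, B and C). GAB2 is a scaffolding adaptor downstream of cytokine receptors, and the series as a whole concerns its part in transformation by BCR-ABL1. The labels give no strain, age, sorting step or treatment for either group and name no separate animals or cultures, so p-values measure the spread between these libraries, which may be technical. Values are FPKM, that is fragments per kilobase of transcript and per M (1000000) mapped fragments.

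V(D)J recombination assembles the variable exons of antigen receptor genes in developing lymphocytes. RAG1 and RAG2 form the recombinase that cuts the DNA at recombination signals and leaves hairpin-sealed coding ends. The Ku proteins, encoded by Xrcc6 (Ku70) and Xrcc5 (Ku80), bind the broken ends and recruit the kinase DNA-PKcs, encoded by Prkdc, with the nuclease Artemis, encoded by Dclre1c, which opens the hairpins. Terminal transferase adds nucleotides without a template, and DNA ligase IV (Lig4) with XRCC4 and XLF (Nhej1) seals the joint. In bone marrow the recombinase and terminal transferase are known from early B-cell precursors, whereas the repair factors act in all cells.

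The promoter sequences are shown because they separate the lymphoid-specific from the ubiquitous genes on a feature that the choice of genes did not use. RefSeq promoters on GRCm38.p6, each from 250 bases before to 50 bases after a gene start, matched 9 of the 10 genes. The stretches lie at chr2:101649483-101649782 (Rag1, minus strand), chr2:101624462-101624761 (Rag2, plus strand), chr19:41029025-41029324 (Dntt, plus strand), chr15:82016119-82016418 (Xrcc6, plus strand), chr8:9977631-9977930 (Lig4, minus strand) and chr1:72307171-72307470 (Xrcc5, plus strand). The Xrcc6 stretch surrounds a RefSeq start that lies within the gene as the GENCODE annotation places it (81987835 to 82040085), not at its 5′ end. Its CpG and motif matches describe that start only. All stretches are given 5′ to 3′ on the strand of the gene, with capitals marking CpG dinucleotides.
Rag1: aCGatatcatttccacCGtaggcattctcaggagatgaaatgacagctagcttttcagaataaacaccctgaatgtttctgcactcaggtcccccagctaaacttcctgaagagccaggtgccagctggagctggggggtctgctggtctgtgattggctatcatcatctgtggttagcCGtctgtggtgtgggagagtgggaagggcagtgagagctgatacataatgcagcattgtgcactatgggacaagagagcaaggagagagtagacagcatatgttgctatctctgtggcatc
Rag2: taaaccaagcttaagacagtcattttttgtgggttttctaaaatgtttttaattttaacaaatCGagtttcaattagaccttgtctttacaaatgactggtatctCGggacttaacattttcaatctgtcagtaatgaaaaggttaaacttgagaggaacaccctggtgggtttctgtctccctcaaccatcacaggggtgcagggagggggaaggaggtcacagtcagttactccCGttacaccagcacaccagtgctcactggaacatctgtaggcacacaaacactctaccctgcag
Dntt: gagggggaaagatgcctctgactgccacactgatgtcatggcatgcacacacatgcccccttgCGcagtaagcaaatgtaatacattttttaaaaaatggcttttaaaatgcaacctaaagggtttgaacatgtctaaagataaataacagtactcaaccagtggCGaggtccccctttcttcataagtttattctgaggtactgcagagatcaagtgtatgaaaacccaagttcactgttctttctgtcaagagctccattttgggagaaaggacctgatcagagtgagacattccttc
Xrcc6: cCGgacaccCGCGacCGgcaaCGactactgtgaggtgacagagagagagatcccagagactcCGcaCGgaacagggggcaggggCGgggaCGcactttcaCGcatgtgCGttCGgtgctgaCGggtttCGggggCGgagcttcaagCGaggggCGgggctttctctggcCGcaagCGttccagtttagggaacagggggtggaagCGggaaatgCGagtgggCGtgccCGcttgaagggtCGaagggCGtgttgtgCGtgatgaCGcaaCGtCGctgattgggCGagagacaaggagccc
Lig4: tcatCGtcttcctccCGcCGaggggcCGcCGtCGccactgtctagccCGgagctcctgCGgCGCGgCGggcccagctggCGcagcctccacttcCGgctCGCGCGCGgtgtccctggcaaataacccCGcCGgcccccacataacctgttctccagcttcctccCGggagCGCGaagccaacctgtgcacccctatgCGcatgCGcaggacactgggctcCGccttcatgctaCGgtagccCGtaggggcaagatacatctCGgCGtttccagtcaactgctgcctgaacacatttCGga
Xrcc5: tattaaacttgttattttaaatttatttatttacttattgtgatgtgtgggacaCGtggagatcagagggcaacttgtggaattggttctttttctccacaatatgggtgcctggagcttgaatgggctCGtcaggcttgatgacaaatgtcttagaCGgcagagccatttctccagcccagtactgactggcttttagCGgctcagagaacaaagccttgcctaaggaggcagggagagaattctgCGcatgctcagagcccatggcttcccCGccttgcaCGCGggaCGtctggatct

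The 3 lymphoid-specific promoters held 3 (Rag1), 3 (Rag2) and 2 (Dntt) CpG dinucleotides, and the ubiquitous promoters between 9 (Xrcc5) and 31 (Xrcc4). The median over all 32851 promoters of this length was 7. Xrcc6 and the Lig4 promoter shown each held 30 CpG, more than 88.3% of all promoters. The Xrcc5 promoter held 9, so the pair of Ku genes differed in this respect.

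A search for 7 short motifs on both strands found few matches in the lymphoid-specific promoters. The E-box CAGGTG, a form bound by E2A proteins, stood in the Rag1 promoter from base -135, counted from the gene start, and is present in 20.2% of all promoters. The Ikaros core TGGGAA stood at -52 of Rag1 and is present in 25.6% of all promoters. None of the 7 letter strings was found in the Rag2 and Dntt windows, which says only that these letters are absent there. The GC box GGGCGG, held by 35.7% of all promoters, had 3 matches each in Xrcc6 and Xrcc4, 2 in Nhej1, 1 in Dclre1c and none in Xrcc5 or the Lig4 window shown. The ETS core CCGGAA (14.9% of promoters) matched in Lig4, Xrcc4 and Dclre1c, and the E2F core TTCCCGC (4.60%) in Xrcc6 and Xrcc4. The FOXO core TGTTTAC (3.65%) matched in no member and the LEF1 core CTTTGA (16.0%) only in Dclre1c. No matches overlapped each other, and a match is a description of the letters, not of a bound site.

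Before the members, Gab2 itself was checked in each library. It stood at 3.33, 3.10 and 2.43 FPKM in the WT libraries (A, B, C) and at 0.123, 0.145 and 0.203 FPKM in the NULL libraries, which goes with the labels. Depth, inferred approximately from the spacing of low values, lay between 17.8 (WT B) and 67.6 (NULL A) M fragments. The tissue label was set against marker lists. Genes of pro-B and pre-B cells summed to 2228 to 2462 FPKM in WT and 3464 to 3658 FPKM in NULL. By contrast no granulocyte marker exceeded 0.130 FPKM in any library, and Elane, S100a8 and S100a9 were listed at 0 in all of them. The T-cell and thymocyte list, which matters because thymocytes also express Rag1, Rag2 and Dntt, summed to 0.312 to 0.525 FPKM in WT and 0.312 to 0.483 FPKM in NULL, with Cd4 listed at 0 throughout. Plasmacytoid dendritic cell markers summed to at most 0.193 FPKM in the WT and 0.697 FPKM in the NULL libraries. Car2, counted among the erythroid markers, was the exception at up to 88.1 FPKM, while Hba-a1 was listed at 0 in every library. Monocyte markers reached at most 0.555 FPKM, with Cd14, C1qa and C1qb at 0 throughout. NK-cell markers summed to 0.440 to 0.586 FPKM in WT and 0.944 to 1.57 FPKM in NULL. Of the progenitor list Ly6a stood at 7.22 to 11.0 FPKM without a call, and Kit, under the filter, reached at most 0.0400 FPKM in WT and 0.497 to 0.542 FPKM in NULL without overlap. Of the plasma-cell list Xbp1 and Irf4, also expressed in other B-lineage cells, were not called at means of 80.5 and 34.1 FPKM in WT, and Sdc1 fell from 5.42 ± 0.959 to 1.52 ± 0.320 FPKM (SD, n = 3). In every library the granulocyte, T-cell, NK-cell, plasmacytoid dendritic cell and monocyte lists each summed to at most 1.57 FPKM. Among the listed markers the libraries thus held mainly B-lineage transcripts, although the label reads bone marrow and names no sorting step. The part of the marker genes in the results was not tested.

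Of the 10 members, all with a mean of at least 1 FPKM, 8 differed between the groups, 6 higher and 2 lower in NULL (limma on log2(FPKM + 1), adjusted p at most 0.05 over 9916 tested genes). Among all tested genes 65.3% were called, 23.3% higher and 42.0% lower, so the share of members called was near the background. The WT and NULL values of 8 members did not overlap, against 71.0% of all tested genes. The median log2 change of the members was 0.55, and that of all tested genes was -0.13.

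**Figure D1:**
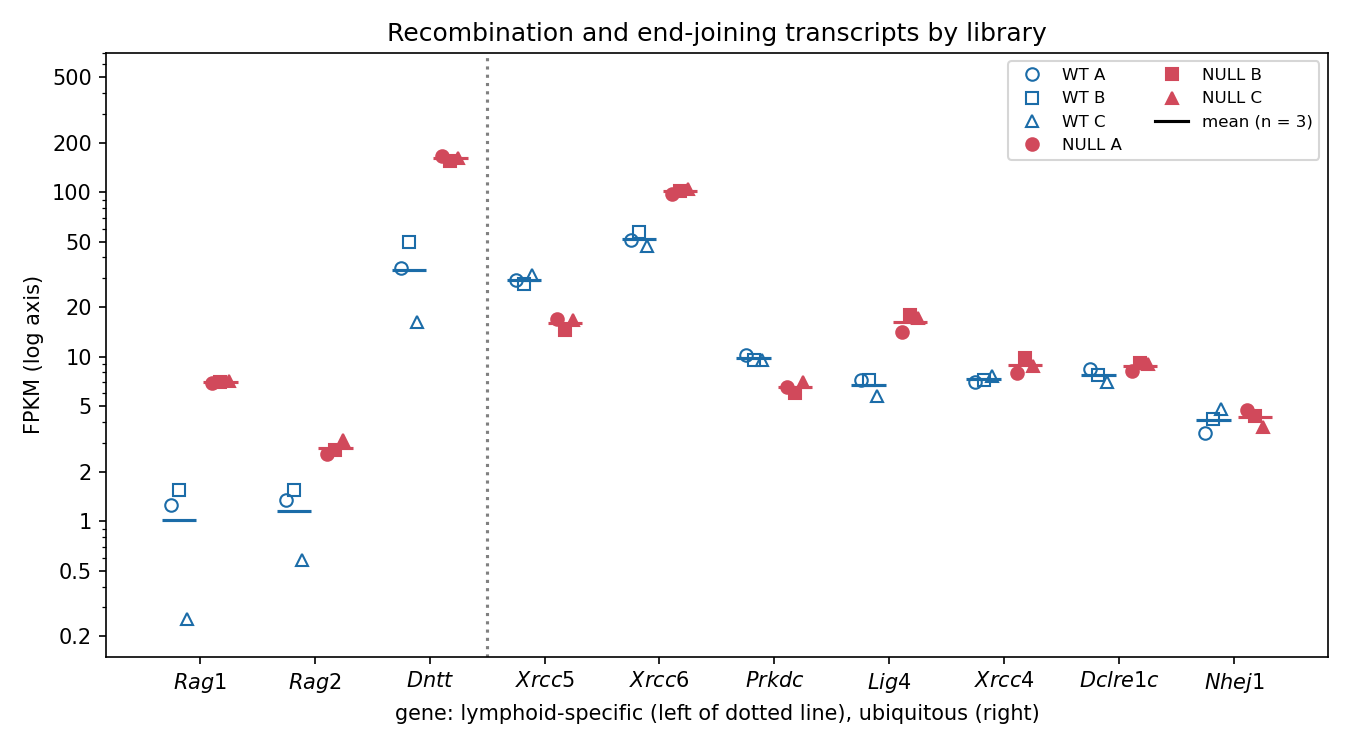
FPKM of the 10 members on a log axis in each of the 6 libraries, with open blue symbols for WT, filled red symbols for NULL, symbol shape for the library letter and a horizontal line for the group mean (n = 3). Rag1, Rag2 and Dntt lie higher in every NULL library, with WT C lowest of all, whereas the ubiquitous genes go up (Xrcc6, Lig4), down (Xrcc5, Prkdc) or little in either direction.

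All 3 lymphoid-specific genes rose in NULL, and they rose by unequal amounts. Rag1, the catalytic subunit of the recombinase, lies at chromosome 2 from 101638282 to 101649501 on the minus strand of GRCm38 and has its whole coding sequence in 1 exon. The WT libraries A, B and C held 1.25, 1.55 and 0.255 FPKM, and the NULL libraries A, B and C held 6.93, 7.01 and 7.11 FPKM. The NULL libraries lay within a narrow band above all WT libraries, while WT C read 18.3% of the mean of WT A and B. The means were 1.02 ± 0.676 and 7.01 ± 0.0900 FPKM (SD, n = 3), a 6.89-fold rise, or 5.02-fold without WT C. On log2(FPKM + 1), a scale that understates the change of low genes, it was 2.05 (SE 0.238, limma adjusted p = 0.000196; 1.74 and 2.21e-05 without WT C), and 0.585% of tested genes had a larger increase.

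Rag2, the partner subunit, lies beside Rag1 at 101624718 to 101632529 on the plus strand, with 5752 bp between the facing 3′ ends. It read 1.35, 1.54 and 0.583 FPKM in the WT and 2.55, 2.70 and 3.13 FPKM in the NULL libraries. The groups did not overlap, and WT C was again the lowest library, at 40.4% of the mean of the other 2 WT libraries. Rag2 rose 2.41-fold (1.93-fold without WT C), with a log2 change of 0.84 (SE 0.174, limma adjusted p = 0.00356; 0.63 and 0.00096 without WT C). The ratio of Rag1 to Rag2 within a library is not altered by a single scaling factor per library. This ratio was 0.925, 1.01 and 0.438 in WT and 2.71, 2.60 and 2.27 in NULL. In FPKM, Rag1 thus went from about the value of Rag2 or below it to more than 2.27 times that value.

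Dntt, on chromosome 19 from 41029275 to 41059525, encodes terminal transferase, the template-independent polymerase. Its values were 34.5, 49.5 and 16.3 FPKM in the WT and 165, 155 and 162 FPKM in the NULL libraries. The NULL libraries were close together and more than 3 times the highest WT library, and WT C was lowest at 38.7% of the mean of WT A and B. The mean rose 4.80-fold, from 33.4 ± 16.6 to 161 ± 5.0 FPKM (SD, n = 3), or 3.82-fold without WT C. The log2 change was 2.36 (SE 0.338, limma adjusted p = 0.000546; 1.93 and 7.36e-05 without WT C), exceeded by 0.363% of tested genes. The related template-guided polymerase of end joining, Polm, named after its values were seen, went from 1.25, 1.20 and 1.38 FPKM in WT to 0.412, 0.446 and 0.314 FPKM in NULL, with a mean under the 1 FPKM filter, so it was not tested. The ratio of Dntt to Polm was 27.6, 41.3 and 11.8 in WT and 400.4, 348 and 514 in NULL.

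In bulk RNA, more cells of a kind and more RNA per cell cannot be told apart, and B-lineage transcripts were higher in NULL as well. The surrogate light chain gene Vpreb1, taken as a B-lineage reference with values known, read 471, 524 and 490 FPKM in the WT and 884, 837 and 773 FPKM in the NULL libraries. Per 100 FPKM of Vpreb1, Dntt read 7.33, 9.45 and 3.32 in WT and 18.7, 18.5 and 20.9 in NULL, still without overlap. Rag1 on the same basis read 0.265, 0.295 and 0.0521 in WT and 0.784, 0.837 and 0.919 in NULL. Rag2 overlapped on this basis, with 0.287, 0.293 and 0.119 in WT and 0.289, 0.322 and 0.405 in NULL. Whether B-lineage makeup or stage had a part in the rise of the lymphoid-specific genes was not tested.

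The ubiquitous genes did not move as a block: 3 rose, 2 fell and 2 were not called, with a median log2 change of 0.17. The Ku subunits, which act as a heterodimer, went in opposite directions. Xrcc6 (Ku70), on chromosome 15 from 81987835 to 82040085, read 51.0, 57.2 and 47.2 FPKM in the WT and 97.9, 101 and 104 FPKM in the NULL libraries. Every NULL library was above every WT library, and the mean rose 1.95-fold (log2 change 0.96, SE 0.0830, limma adjusted p = 6.02e-05). Xrcc5 (Ku80), on chromosome 1 from 72307421 to 72394952, read 29.2, 27.6 and 31.3 FPKM in the WT and 16.8, 14.5 and 16.7 FPKM in the NULL libraries. Here every NULL library was below every WT library, and NULL held 0.544 of the WT mean (log2 change -0.84, SE 0.0814, limma adjusted p = 8.98e-05). The ratio of Xrcc6 to Xrcc5 was 1.74, 2.07 and 1.51 in WT and 5.82, 7.0 and 6.24 in NULL, a rise of 3.58-fold in the mean ratio.

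Prkdc, the DNA-PKcs kinase subunit that Ku recruits, fell with Xrcc5. It lies on chromosome 16 from 15637866 to 15842235 and read 10.2, 9.59 and 9.55 FPKM in the WT and 6.50, 5.98 and 7.0 FPKM in the NULL libraries. NULL held 0.664 of the WT mean (log2 change -0.53, SE 0.0729, limma adjusted p = 0.000465), and the groups did not overlap. With libraries brought to a common summed FPKM, small RNA genes left out (the common-total scaling), the change was -0.19 and no longer called (limma adjusted p = 0.0953). Artemis, encoded by Dclre1c, was not called, with 8.42, 7.68 and 7.03 FPKM in the WT and 8.16, 9.17 and 9.01 FPKM in the NULL libraries. The 95% interval of its log2 change ran from -0.022 to 0.36, and 2 of the 3 rescalings called it higher.

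The ligation factors differed from each other too. Lig4, the DNA ligase of end joining, lies on chromosome 8 from 9969049 to 9977686 with its coding sequence in 1 exon, and read 7.19, 7.21 and 5.74 FPKM in the WT and 14.0, 17.8 and 17.0 FPKM in the NULL libraries. It rose 2.43-fold without overlap (log2 change 1.17, SE 0.114, limma adjusted p = 9.26e-05), and 3.04% of tested genes had a larger increase. Its binding partner Xrcc4 read 7.0, 7.21 and 7.58 FPKM in the WT and 7.96, 9.79 and 8.80 FPKM in the NULL libraries, a rise of 1.22-fold (log2 change 0.25, SE 0.0826, limma adjusted p = 0.0291). That small rise lost its call without WT A, WT B, NULL B or NULL C in turn, with limma adjusted p between 0.0726 and 0.0891. Nhej1, the XLF gene, overlapped between the groups at 3.42, 4.18 and 4.77 FPKM in the WT and 4.73, 4.35 and 3.73 FPKM in the NULL libraries, with a 95% interval of the log2 change from -0.23 to 0.32. The ratio of Lig4 to Xrcc4 was 1.03, 1.0 and 0.757 in WT and 1.76, 1.82 and 1.94 in NULL.

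**Figure D2:**
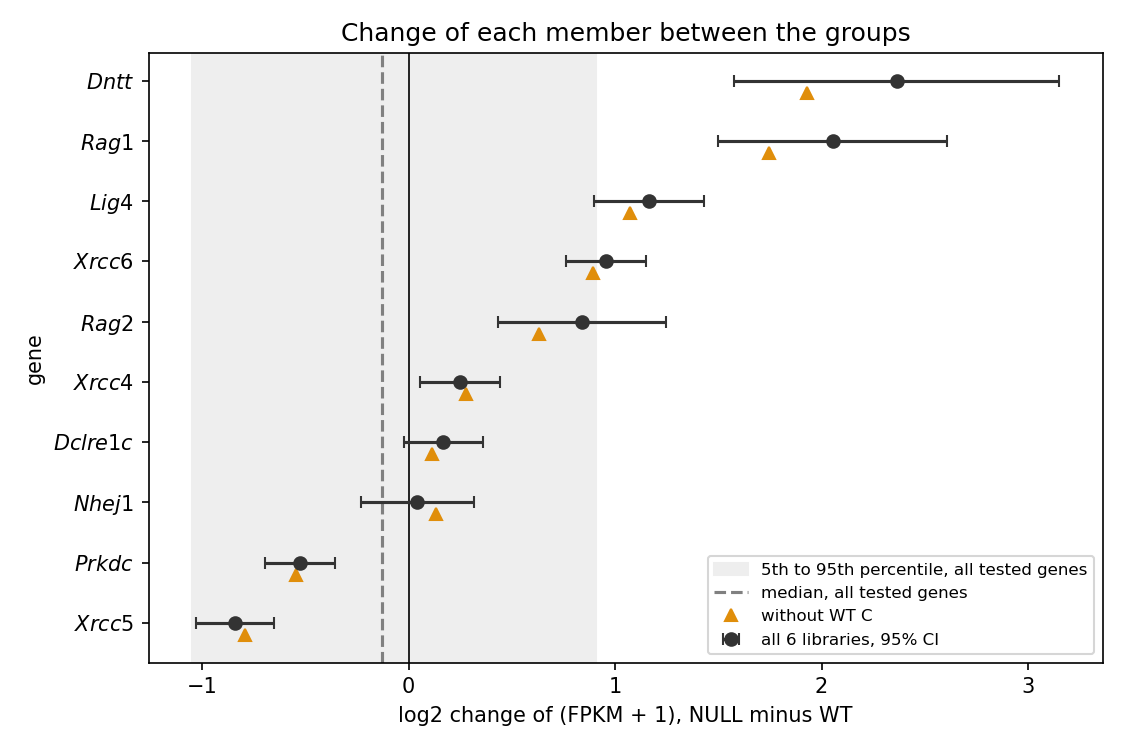
Log2 change of FPKM + 1 (NULL minus WT) for each member with its 95% confidence interval, and the change without WT C as a triangle. The grey band is the 5th to 95th percentile of all tested genes, from -1.05 to 0.91, and the dashed line their median. Dntt, Rag1, Lig4 and Xrcc6 lie above the band, and Xrcc5 and Prkdc below the median but within the band. Rag2 lies within the band, near its upper end.

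Set side by side, the lymphoid-specific members differed between the groups far more than the ubiquitous members on average. This rests on Rag1 and Dntt, since Rag2 (log2 change 0.84) changed less than the ubiquitous Lig4 (1.17) and Xrcc6 (0.96). The mean log2(FPKM + 1) of Rag1, Rag2 and Dntt was 2.52, 2.78 and 1.70 in WT A, B and C and 4.06, 4.06 and 4.14 in NULL A, B and C. The same mean of the 7 ubiquitous genes was 3.65, 3.67 and 3.63 in WT and 3.78, 3.84 and 3.84 in NULL. The difference between the 2 means rose by 1.58 from WT to NULL (SD over libraries 0.546 in WT and 0.0395 in NULL, n = 3), or by 1.27 without WT C. The small shift of the ubiquitous mean hides the opposite changes of its members. No test was made of this contrast, since genes of a list are not replicates.

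FPKM are scaled by transcript length, so levels can be set side by side between genes, but only roughly. The annotation behind the lengths is not given, and reads of overlapping genes may be shared. In WT the order by mean was Xrcc6, Dntt, Xrcc5, Prkdc, Dclre1c, Xrcc4, Lig4, Nhej1, Rag2 and Rag1, from 51.8 to 1.02 FPKM. Dntt overlapped both Xrcc6 and Xrcc5 in its range of values, as did Dclre1c with Xrcc4, Xrcc4 with Lig4, and Rag2 with Rag1. In NULL the order was Dntt, Xrcc6, Lig4, Xrcc5, Xrcc4, Dclre1c, Rag1, Prkdc, Nhej1 and Rag2, from 161 to 2.79 FPKM. There the neighbours Lig4 and Xrcc5, Xrcc4 and Dclre1c, and Rag1 and Prkdc overlapped. Rag1 moved from the last place to the seventh, and Lig4 from the seventh to the third.

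**Figure D3:**
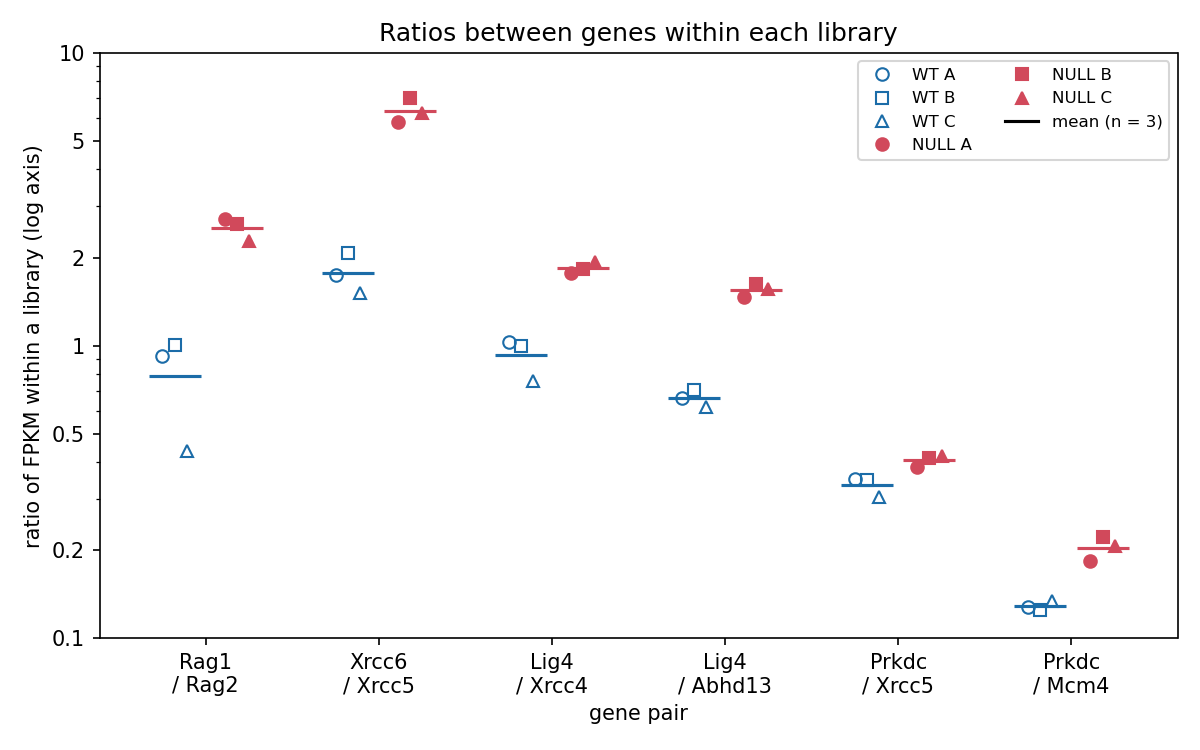
Ratio of FPKM between 2 genes within each library, on a log axis, with open blue symbols for WT, filled red symbols for NULL and lines for group means (n = 3). The NULL libraries lie above the WT libraries for all 6 pairs shown, from 1.22-fold in the mean for Prkdc to Xrcc5 up to 3.58-fold for Xrcc6 to Xrcc5. Turning a pair over reverses its direction, so the shared upward direction reflects the order chosen for each pair.

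Across 10 such ratios, an exact two-sided permutation test over the libraries gave p = 0.1 for 9 (Benjamini-Hochberg adjusted p = 0.111), the smallest that 3 against 3 libraries allow, and p = 0.2 for Rag2 to Vpreb1. The design cannot reach a threshold of 0.05 with this test. The pairs were chosen with earlier results known. A ratio of a rising to a falling gene, each without overlap, separates by construction, as for Xrcc6 to Xrcc5. These p-values therefore add no support.

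Counts for the related lists are to be read against the 23.3% of all tested genes called higher and 42.0% called lower. Of 9 accessory end-joining genes 8 were in the table and 7 were tested, of which 1 rose (the helicase gene Wrn), 1 fell (Aplf, a Ku-binding scaffold) and 5 were not called, with a median log2 change of 0.17. Aplf went from 3.29 ± 0.297 to 2.35 ± 0.111 FPKM (SD, n = 3), a call lost under the common-total scaling, and the polymerase gene Poll, not called as deposited, was called higher under all 3 rescalings. The rescalings gave 4, 3 and 4 higher and 1, 1 and 0 lower accessory genes (median-of-ratios, quantile, common-total), so the number not called depends on the scaling. Poll averaged 4.72 ± 0.845 FPKM (WT) and 6.20 ± 0.979 FPKM (NULL).

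Of 13 tested genes that signal or protect DNA breaks 9 fell, 4 were not called and none rose (median -0.44, all tested genes -0.13). The MRN complex, the sensor of broken ends, was among them. Rad50 read 25.0, 25.4 and 25.7 FPKM in the WT and 14.0, 13.8 and 14.7 FPKM in the NULL libraries (limma log2 change -0.79, SE 0.0576). Its partners Mre11a and Nbn fell by 0.85 and 1.12 (log2), as did the end-protection gene Rif1 by 0.82. The common-total scaling left 5 of the 13 lower and 2 higher, with a median of -0.091.

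Of 8 alternative end-joining genes 6 fell, 1 rose and 1 was not called (median -0.72). The ligase gene Lig3 went from 15.9 ± 0.327 to 9.73 ± 0.293 FPKM, Lig1 from 40.1 ± 1.66 to 19.8 ± 2.80 FPKM and the polymerase theta gene Polq from 9.57 ± 0.313 to 4.16 ± 0.803 FPKM (SD, n = 3). Of the 3 DNA ligase genes, Lig4 rose and Lig1 and Lig3 fell. The exception in this list was the scaffold gene Xrcc1, named after its values were seen, which rose from 25.0 ± 3.04 to 44.9 ± 4.67 FPKM. Each of the 3 rescalings again gave 6 lower genes in this list, and 2 of them gave 2 higher. Among all tested genes 42.0% were lower and 23.3% higher.

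Cofactors and turnover factors of the recombinase went against Rag1 and Rag2, with 9 of 10 lower and 1 higher (median -0.69), where 42.0% of all tested genes were lower. Quantile normalization left 7 lower and 2 not called. HMGB proteins bend DNA in the recombinase complex, and Hmgb2 read 292, 308 and 281 FPKM in the WT and 152, 118 and 149 FPKM in the NULL libraries. Cyclin A, whose kinase marks RAG2 for destruction as cells enter S phase, is encoded by Ccna2, which went from 141 ± 10.2 to 63.8 ± 10.8 FPKM (SD, n = 3). The ubiquitin ligase subunits Cul1 and Skp1a fell by 0.78 and 0.62 on the log2 scale, the latter without a call after quantile normalization (-0.14). Replication and mitosis genes fell in 15 of 15 cases with a median of -1.10, and did so under each rescaling. Their part in the lower values of Xrcc5, Prkdc and the repair lists was not tested.

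Of 18 tested transcription factors known to act on the Rag genes or Dntt 12 rose, 2 fell and 4 were not called (median 0.58), where 23.3% of all tested genes were higher and 42.0% lower. Ets1 went from 77.1 ± 3.21 to 125 ± 1.53 FPKM, the B-lineage factor Ebf1 from 53.3 ± 5.85 to 103 ± 4.87 FPKM and Myb from 98.4 ± 9.35 to 182 ± 9.73 FPKM (SD, n = 3). Ikzf1, the Ikaros gene, fell from 45.8 ± 0.839 to 30.4 ± 0.332 FPKM, a call lost under the common-total scaling (limma adjusted p = 0.0542). Sfpi1, the PU.1 gene, named after its values were seen, was the other that fell, with its call likewise lost there. Named after their values were seen, Foxo1, which activates the Rag genes, read 6.93, 6.98 and 3.64 FPKM in the WT and 9.45, 11.8 and 10.1 FPKM in the NULL libraries, and Lef1 read 18.5, 20.8 and 11.3 FPKM in the WT and 42.6, 50.5 and 42.0 FPKM in the NULL libraries. In both genes WT C was the lowest library, as it was for Rag1, Rag2 and Dntt, and so it was for Il7r. This receptor gene of early B cells, likewise chosen after its values were seen, held 13.0, 13.9 and 4.92 FPKM in WT and 66.0, 85.1 and 76.3 FPKM in NULL, a 7.13-fold rise (limma log2 change 2.83, SE 0.328, adjusted p = 0.000196), larger on the log2 scale than that of any of the 10 members. Tcf3 and Pax5, also picked after their values were seen, were in WT C above WT A and B, at 131% and 132% of their mean, so WT C was not low for every early B-cell regulator.

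**Figure D4:**
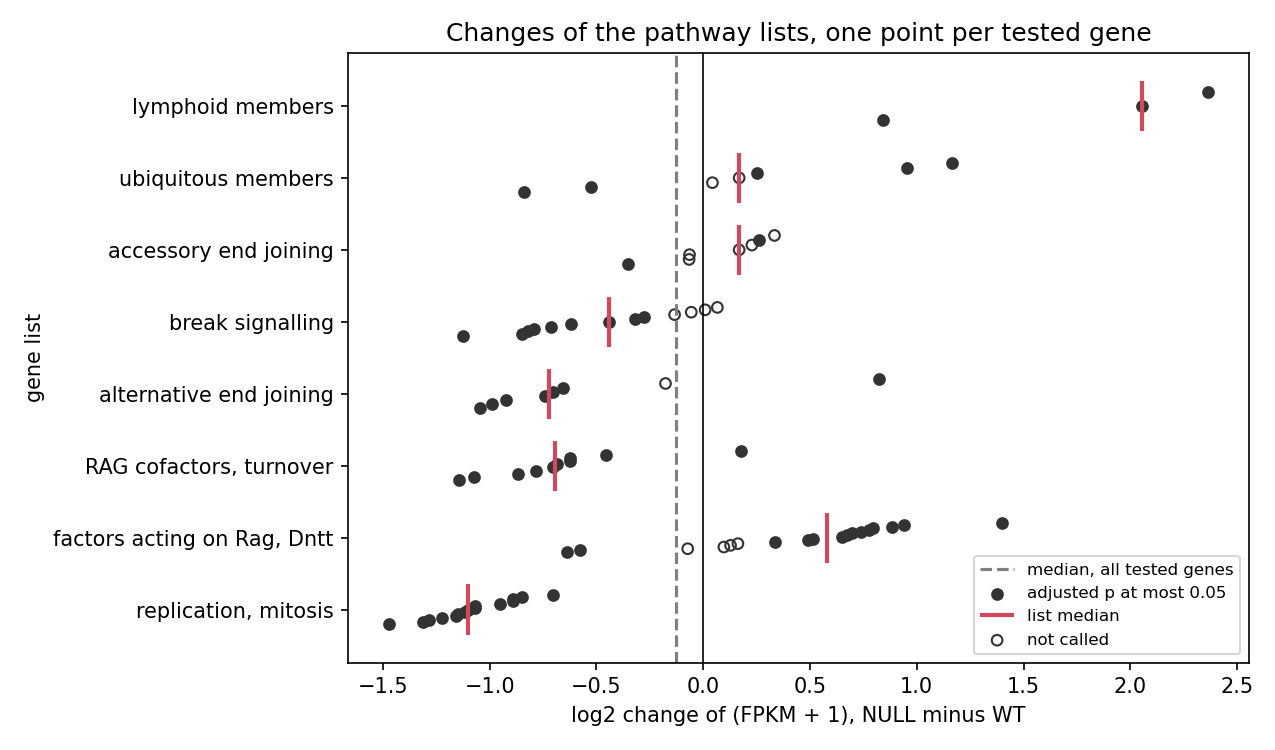
Log2 change of FPKM + 1 (NULL minus WT), 1 point per tested gene, for the members and 6 related gene lists, with filled points for an adjusted p of at most 0.05, a red bar for the list median and a dashed line for the median of all tested genes. Lymphoid members and the factors acting on Rag genes or Dntt lie mostly to the right, and break signalling, alternative end joining, recombinase cofactors and replication mostly to the left, with the ubiquitous members spread over both sides.

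Genes whose pattern over the 6 libraries was most like that of Rag1 (Pearson correlation of log2(FPKM + 1), a description only) were Cecr2, Pgf and Plk2, each with r of at least 0.999. Those most like Dntt were Arntl, Vps33b and Capsl, each with r of 0.998. With groups this far apart such values are common: 834 tested genes had r of at least 0.95 with Rag1 and 616 with Dntt.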

How the data were processed

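Expression was given as FPKM, deposited by the authors for 6 libraries labelled bone marrow. The submitters' processing notes list Bowtie, Cufflinks, mm10 and GRCm38, without versions or roles. Annotation, strand use in counting, filters and scaling are each not given in the sources used here, so reads where genes overlap may be shared. The series table held 23848 rows and differed from the library tables in 0 values. Of 256 repeated symbols only the row of highest mean entered, which left 23359 symbols.

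The 9916 genes averaging at least 1 FPKM were fitted with limma 3.58.1 (R 4.3.3) as log2(FPKM + 1), with a trend, and two-sided p-values were adjusted over all of them (Benjamini-Hochberg). Ratios were tested with an exact permutation test. No count model was used, since FPKM are not counts. This fit was tested on simulated data beforehand. Positions come from GENCODE vM21 on GRCm38 and promoters from RefSeq. Depth is an approximation (transcript length less 150 bp times the low FPKM step) that supports no counting interval.

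The members, lists and tests were chosen with earlier results of these data known. Genes named are the 10 members, Gab2, up to 4 genes per list with the smallest p, the nearest protein-coding neighbours and the 3 genes most like Rag1 or Dntt, with others marked where named. A gene that this rule names is not reported here. Gene lists used older symbols where the table does. Constant genes of the antigen receptor loci were not analysed here. Alternatives were other pseudocounts, filters, scalings, moderation, all table rows, a block on the library letter and leaving out each library.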

Additional observations from a re-analysis of the deposited data

How the results depend on the processing

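Under 17 alternatives between 6 and 9 of the members were called, against 8 in the analysis reported. Rag1, Rag2, Dntt, Xrcc6, Xrcc5 and Lig4 kept their direction and their call in every alternative in which they were tested, and Rag1 and Rag2 were not tested with a filter of 5 FPKM. Prkdc lost its call in 1 alternative and Xrcc4 in 6. Nhej1, not called, changed sign without WT A (-0.059) and without NULL A (-0.019). Leaving out each library gave 7 to 8 called members and 5825 to 6488 called genes, and a lymphoid minus ubiquitous difference between 1.27 (without WT C) and 1.79. That difference was 2.03 with a pseudocount of 0.1 and 1.04 with a pseudocount of 5, as the pseudocount weighs on the low Rag1 and Rag2 values. Scaling moved the balance of all calls: the lower share was 64.3% as deposited, 50.8% with median-of-ratios factors, 53.7% with quantile normalization and 31.4% under the common-total scaling, with medians over all genes of -0.13, 0.0098, -0.030 and 0.20. Small RNA genes held 6.06% (WT A) to 31.5% (WT C) of the summed FPKM. With a replicate block on the library letter 7 members were called, Xrcc4 being lost (limma adjusted p = 0.0511), and 5844 genes against 6479. Deviations of libraries with the same letter correlated across genes at 0.073 (A), 0.36 (B) and 0.13 (C), each library best with its own letter, which is a hint from the data and not a stated pairing. By the approximate depth, the lowest fragment numbers of any member were those of Rag1 and Rag2 in WT C, about 36.9 and 42.8. In every other library Nhej1 had the fewest, from about 67.2 (WT B) to 288.5 (NULL A).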

Other observations

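Neighbouring genes differed in whether they moved with the members. The start of Lig4 lies 20 bp from that of Abhd13, which is read in the opposite direction and encodes a hydrolase-fold protein. Abhd13 was not called, at 10.1 ± 0.787 FPKM in the WT and 10.5 ± 0.795 FPKM in the NULL libraries (SD, n = 3), though the common-total scaling called it higher (0.40, limma adjusted p = 0.0166), while Lig4 rose. The ratio of Lig4 to Abhd13 was 0.661, 0.704 and 0.617 in WT and 1.46, 1.62 and 1.56 in NULL. Prkdc and the replication helicase gene Mcm4 also start head to head, 465 bp apart, and both fell. Mcm4 went from 75.9 ± 4.32 to 32.1 ± 4.51 FPKM, further than Prkdc, so that the ratio of Prkdc to Mcm4 went from 0.128, 0.125 and 0.134 in WT to 0.183, 0.222 and 0.207 in NULL.

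Traf6, the next gene beyond the Rag1 start at a distance of 28927 bp, had means of 10.9 ± 0.336 FPKM (WT) and 11.3 ± 0.231 FPKM (NULL), with no call as deposited and a call as higher under the 3 rescalings (largest log2 change 0.40). B230118H07Rik, whose annotation spans both Rag genes, read at most 0.0524 FPKM in WT and between 0.166 and 0.283 FPKM in NULL. Blnk, 34739 bp from Dntt and itself a B-lineage adaptor, rose from 71.6 ± 12.1 to 171 ± 4.12 FPKM. Some members overlap a neighbour in the annotation, so shared reads cannot be assigned with certainty. Desi1, which overlaps Xrcc6, rose from 8.69 ± 1.44 to 14.8 ± 1.38 FPKM. Suv39h2, which overlaps Dclre1c, fell from 5.92 ± 0.269 to 2.79 ± 0.257 FPKM, and Tmem167, which overlaps Xrcc4, fell from 9.04 ± 0.769 to 6.52 ± 0.271 FPKM, the latter with no call under the common-total scaling.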
